A study of Homo sapiens with 4 samples.

Results

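The E2F factors and the RB pocket proteins form the switch that lets a cell leave G1 and copy its DNA. E2F factors bind the promoters of replication and cell cycle genes, mostly as dimers with a DP protein. E2F1, E2F2 and E2F3 are known as activators, E2F4 and E2F5 as repressors that act with pocket proteins, and the atypical E2F7 and E2F8 repress without a DP partner. The pocket proteins RB (gene RB1), p107 (RBL1) and p130 (RBL2) hold E2Fs inactive until cyclin-dependent kinases phosphorylate them. E2F1, E2F2, E2F7, E2F8 and RBL1 are themselves known E2F targets, so that the switch feeds back on its own genes. Glioblastomas commonly carry lesions in this pathway.

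Described here are the 10 genes E2F1, E2F2, E2F3, E2F4, E2F5, E2F7, E2F8, RB1, RBL1 and RBL2, taken by gene symbol from the 19749 rows of the authors' deposited table. All 10 passed the authors' filter on low levels and were tested, as were 14812 genes in all. The study treated U87, an established human glioblastoma cell line, with YZ129, which the series title links to inhibition of HSP90, calcineurin and NFAT, and sequenced poly(A) RNA. The groups were U87 cells given 5 µM YZ129 for 24 h (n = 2 libraries) and U87 cells given the vehicle DMSO (n = 2 libraries). Each of these libraries came from this 1 line. The labels do not mention separate cultures, so the p-values reflect only the variation from library to library, which may be technical.

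The authors' deposited table holds 1 log2 fold change per gene, with its standard error (SE), and a mean level in size-factor normalized reads. The mean level covers 8 libraries, 4 more than described here. The cells and treatment of these further 4 are not known here, so mean levels are not those of the described U87 libraries alone. Values per library were not analysed here, so the levels in YZ129 and in DMSO cells, and whether the groups overlap, are not given. The table does not state which group was the numerator. A positive change was read as higher with YZ129, because most chaperone genes looked at that are known to be induced when HSP90 is inhibited were positive. Of 24 tested heat shock genes in the authors' deposited table, 12 were called positive and 0 negative. HSPA6, a strictly inducible HSP70, was at 2.64 ± 0.23 there, while HSP90AA1 stood at -0.04 ± 0.14. The 12 that did not pass included DNAJB1 (0.39 ± 0.14), AHSA1 (0.19 ± 0.16) and HSPB1 (-0.21 ± 0.16) in the authors' deposited table. These genes were chosen with their values known, so the count is not an independent test of the direction. DMSO comes first in the comparison's name, and this can be taken to mean the opposite. Under that reading every "fell" below becomes "rose", counts of falls and rises trade places and every log2 change turns its sign. Percent levels then become their inverse, while absolute log2 changes, SEs, p-values and the total number of calls stay as they are. Of the markers of the line in the authors' deposited table, VIM and CD44 were abundant, with mean levels of 298885 and 134994, GFAP had a mean level of 52.2, and SOX2 and S100B were near 0, at 0.851 and 1.12. Of the 8 tested markers of the line 4 fell and 0 rose in the authors' deposited table. VIM (-0.46 ± 0.13), CD44 (-0.38 ± 0.13), NES (-0.59 ± 0.15) and SLC1A3 (-1.03 ± 0.15) fell there. GFAP (-0.56 ± 0.39), FABP7 (-0.48 ± 0.56), CHI3L1 (0.15 ± 0.15) and OLIG2 (0.82 ± 0.33) did not pass. The 4 epithelial markers reached at most a mean level of 18.1 in the authors' deposited table. Of the blood markers PTPRC, CD14 and CD3E reached at most 11.99 there, while LCP1, which some tumour lines also express, had 1213 and rose (0.69 ± 0.15). The 4 fibroblast markers had mean levels of 359 to 19622 in the authors' deposited table, and COL1A1 fell (-1.15 ± 0.15). Of the neuronal markers RBFOX3 was at 3.90 and the other 3 at 408 to 1627 in mean level, and SNAP25 fell (-1.43 ± 0.17) in the authors' deposited table. Their part in the results was not tested.

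E2F1, E2F2, E2F8 and RBL1 fell with YZ129, and E2F3, E2F4, E2F5, E2F7, RB1 and RBL2 did not pass the test. Of the 10 members 4 fell and 0 rose at an adjusted p of 0.05 in the authors' deposited table. Of all tested genes 12.9% were called in either direction, 7.64% lower and 5.24% higher. The median change of the 10 was -0.34, against -0.05 over all tested genes. The levels of the 4 with YZ129 were 34.0% to 54.6% below those with DMSO, or 51.5% to 120.1% above them if the direction is opposite. Among the activators, the repressors, the atypical E2Fs and the pocket proteins at least 1 gene each did not pass. In RNA from whole cultures, fewer cells that express a gene and less of its RNA per cell cannot be told apart.

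**Figure D1:**
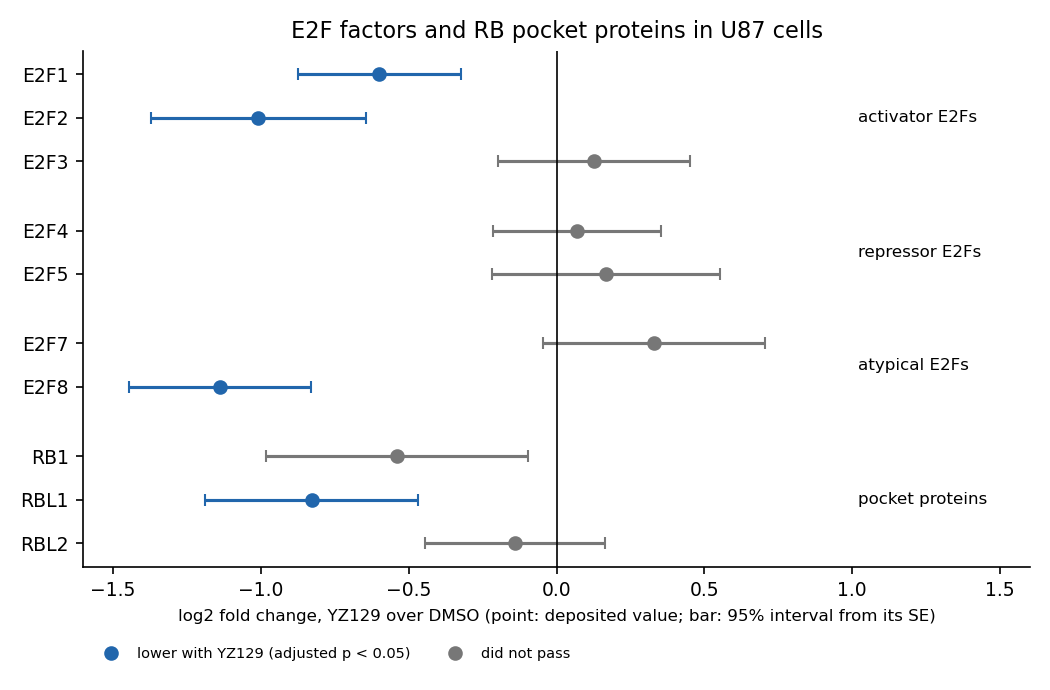
Log2 fold change of each member, YZ129 over DMSO, with points at the deposited value and bars for the 95% interval from its SE; blue points passed an adjusted p of 0.05. E2F1, E2F2, E2F8 and RBL1 lie below 0 with their whole interval, and RB1 does so without passing after adjustment.

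The promoters of members that fell and had a window are shown first. Whether feedback of E2Fs on their own genes had a part in these falls was not tested. RefSeq windows of 300 bases, 250 before to 50 after a transcription start (build GRCh38.p14), were matched by symbol for 8 of the 10 members. Windows for E2F5 and E2F8 were not used here. The RB1 window had its transcription start 172703 bases from the nearest GENCODE start of that gene and was left out. The letters searched, on both strands, were the E2F words TTTCGCGC, TTTGGCGC, TTTCCCGC and TTTGCCGC. Matches did not overlap in the members' windows. Capitals mark a match, written as it reads on the gene's strand, so GCGGCAAA and GCGGGAAA are words on the other strand. E2F1 is at chr20:33686336-33686635 (minus strand), E2F2 at chr1:23531184-23531483 (minus strand) and RBL1 at chr20:37095948-37096247 (minus strand). E2F3 at chr6:20401629-20401928 (plus strand) and E2F7 at chr12:77065520-77065819 (minus strand) are set beside them as members that did not pass.
E2F1: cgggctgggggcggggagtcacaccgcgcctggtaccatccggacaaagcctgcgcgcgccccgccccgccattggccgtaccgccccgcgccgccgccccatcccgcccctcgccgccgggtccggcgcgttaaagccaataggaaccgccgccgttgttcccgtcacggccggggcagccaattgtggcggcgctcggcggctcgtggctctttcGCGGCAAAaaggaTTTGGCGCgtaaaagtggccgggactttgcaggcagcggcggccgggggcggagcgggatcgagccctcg
E2F2: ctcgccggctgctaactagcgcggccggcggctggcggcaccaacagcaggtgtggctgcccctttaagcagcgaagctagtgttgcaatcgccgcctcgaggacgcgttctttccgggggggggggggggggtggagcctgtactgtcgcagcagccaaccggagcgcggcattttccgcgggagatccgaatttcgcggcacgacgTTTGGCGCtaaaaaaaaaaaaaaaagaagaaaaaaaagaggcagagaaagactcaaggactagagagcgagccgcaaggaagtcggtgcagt
RBL1: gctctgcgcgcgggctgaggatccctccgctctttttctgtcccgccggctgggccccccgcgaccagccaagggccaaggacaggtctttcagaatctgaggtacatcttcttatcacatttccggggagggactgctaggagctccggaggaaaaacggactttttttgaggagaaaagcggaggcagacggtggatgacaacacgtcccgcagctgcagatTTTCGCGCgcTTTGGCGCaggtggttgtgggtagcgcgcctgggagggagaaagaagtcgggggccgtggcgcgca
E2F3: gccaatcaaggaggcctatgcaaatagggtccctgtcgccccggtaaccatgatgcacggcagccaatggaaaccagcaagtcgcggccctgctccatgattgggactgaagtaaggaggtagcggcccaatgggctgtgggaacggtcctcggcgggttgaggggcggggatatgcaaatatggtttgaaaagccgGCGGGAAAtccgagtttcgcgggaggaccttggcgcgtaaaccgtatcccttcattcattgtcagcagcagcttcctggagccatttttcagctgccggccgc
E2F7: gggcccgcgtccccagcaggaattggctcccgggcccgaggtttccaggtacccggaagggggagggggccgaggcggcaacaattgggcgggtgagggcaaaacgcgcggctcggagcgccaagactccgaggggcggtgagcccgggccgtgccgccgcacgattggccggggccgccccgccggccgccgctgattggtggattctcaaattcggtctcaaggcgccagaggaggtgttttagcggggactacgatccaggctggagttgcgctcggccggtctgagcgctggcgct

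All 3 members that fell and had a window held a word, and all of their words lay within 50 bases before the start. E2F1 had TTTGGCGC on the gene's strand, 20 bases before the start, and TTTGCCGC on the other strand, 33 bases before it. E2F2 had a single TTTGGCGC, 42 bases before the start. RBL1 had TTTCGCGC and TTTGGCGC on the gene's strand, 26 and 16 bases before the start. Of the members that did not pass, E2F3 held TTTCCCGC on the other strand, 53 bases before its upstream start. E2F4, E2F7 and RBL2 held none of the 4 words in their windows, which says only that these letters are absent there. At least 1 word was present in 3.31% of all 35116 windows. TTTGGCGC was in 0.652% of them, TTTCGCGC in 0.515%, TTTGCCGC in 0.607% and TTTCCCGC in 1.63%.

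The shares of genes with a word are a description, with no test. Of 10435 tested genes with a window 6.32% held a word. The share was 9.39% of the 831 that fell, 4.79% of the 501 that rose and 6.12% of the 9103 that did not pass. Among the G1/S genes listed as E2F targets, 20 of 33 with a window held a word. Among the G2/M genes controlled by DREAM and B-MYB complexes, 1 of 20 did. A match is a run of letters and was not tested as a binding site in these cells.

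**Figure D2:**
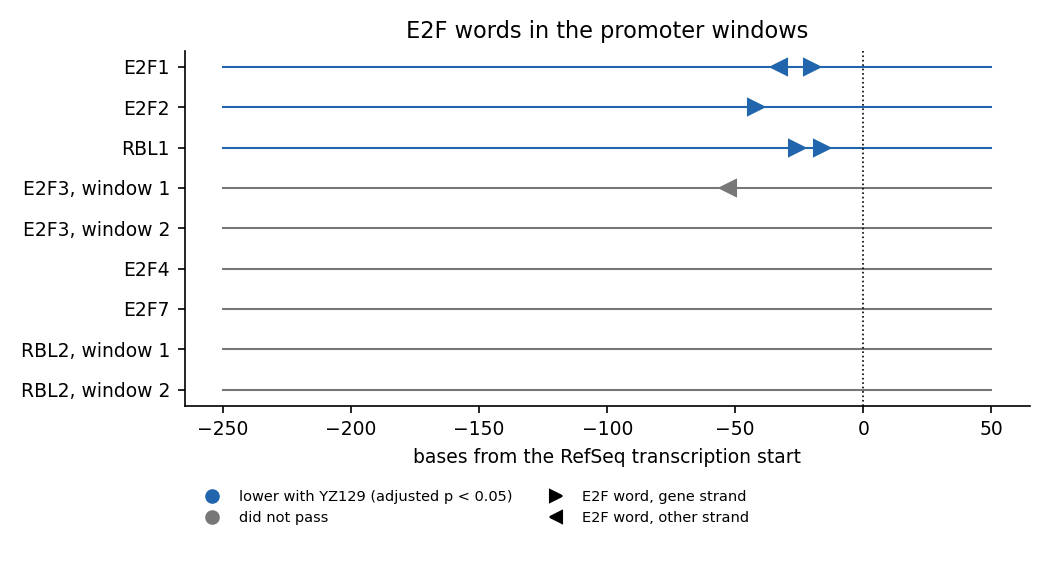
Position of E2F words in the RefSeq windows of the members, in bases from the transcription start, with arrows for the strand and blue lines for members that fell. E2F1, E2F2 and RBL1 hold 2, 1 and 2 words between 42 and 16 bases before the start, and E2F4, E2F7 and RBL2 hold none.

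Of the activators, E2F1 and E2F2 fell and E2F3 did not pass. E2F1, which drives S phase genes and can also drive apoptosis genes, had a log2 change of -0.60 ± 0.14 (adjusted p = 0.000498) in the authors' deposited table, 1.51-fold lower. This puts its level with YZ129 at 66.0% of the DMSO level, with a 95% interval of 54.6% to 79.9% from the deposited SE. E2F2 fell by 1.01 ± 0.18 on the log2 scale (adjusted p = 2.70e-06) in the authors' deposited table, to 49.7% of the DMSO level (38.7% to 63.9%). E2F3, an activator needed for S phase entry in many cell types, stood at 0.13 ± 0.17 (adjusted p = 0.685) in the authors' deposited table. E2F1 minus E2F3 came to -0.73 on the log2 scale (95% interval -1.15 to -0.30), and E2F2 minus E2F3 to -1.14 (-1.62 to -0.65). Both intervals lay below 0. The fall of E2F2 was not distinguishable from that of E2F1, with a difference of -0.41 (-0.86 to 0.05). These intervals treat the errors of a pair of genes as independent, although both come from the same libraries. The pairs here and below were chosen with earlier results of these data known, so their intervals are a description and no independent test.

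The repressors E2F4 and E2F5, which carry pocket proteins to promoters in resting cells, did not pass. E2F4 stood at 0.07 ± 0.15 (adjusted p = 0.815) and E2F5 at 0.17 ± 0.20 (adjusted p = 0.651) in the authors' deposited table. Their 95% intervals reached from 86.2% to 128% of the DMSO level for E2F4 and from 85.9% to 147% for E2F5, so a fall as large as that of E2F1 lies outside both. E2F5 shares 443 exon bases with C8orf59 on the opposite strand in GENCODE 29. Whether the authors' counting used strand is not known here, and C8orf59 had 0.08 ± 0.16 in the authors' deposited table.

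Of the atypical E2Fs, E2F8 fell and E2F7 did not pass. E2F8 had the largest fall of the members, at -1.14 ± 0.16 (adjusted p = 4.28e-11) in the authors' deposited table. Its level with YZ129 was 45.4% of the DMSO level (95% interval 36.7% to 56.2%), or 220.1% if the direction is opposite. Its change ranked 145 from the lowest of the 14812 tested genes, which would be from the highest under the opposite reading. E2F7, its closest relative, which represses E2F1 together with E2F8, had the highest change of the members, at 0.33 ± 0.19 (adjusted p = 0.279) in the authors' deposited table. The difference of E2F8 from E2F7 was -1.47 on the log2 scale, with a 95% interval of -1.95 to -0.98. As the members with the lowest and the highest change, they had to give the widest gap among the 7 pairs compared.

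Of the pocket proteins RBL1 fell, and RB1 and RBL2 did not pass. RBL1, whose product p107 binds the repressor E2Fs in cycling cells, fell by 0.83 ± 0.18 on the log2 scale (adjusted p = 0.000196) in the authors' deposited table, to 56.3% of the DMSO level (43.8% to 72.3%). RB1, the tumour suppressor that restrains the activator E2Fs, stood at -0.54 ± 0.23 in the authors' deposited table, with a p of 0.0173 before adjustment and 0.0995 after it. RBL2, whose product p130 dominates in resting cells, stood at -0.14 ± 0.16 (adjusted p = 0.624) in the authors' deposited table. RBL1 differed from RBL2 by -0.69 (95% interval -1.16 to -0.22). It was not distinguishable from RB1, with a difference of -0.29 (-0.86 to 0.28). The SE of RB1 was the largest of the 10 members. RBL2 shares 610 exon bases with AKTIP on the opposite strand, and AKTIP had 0.04 ± 0.15 in the authors' deposited table. Also on the opposite strand, RBL1 shares 211 exon bases with AL136172.1 and RBL2 381 with AC007342.6. E2F5 shares 133 with AC011773.1 and E2F8 7 with AC009652.2 in the same way. These further overlapping genes had no value under their symbols in the authors' deposited table.

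Levels were set against each other only per kilobase of merged GENCODE 29 exons, since a longer transcript gives more reads. E2F1 and E2F4 were the most abundant, with authors' mean levels of 1606 and 1591 per kilobase. The pocket protein genes RBL2, RB1 and RBL1 followed at 758, 572 and 540 per kilobase, with E2F7 at 561. E2F8, E2F5, E2F3 and E2F2 were the lowest, at 221, 196, 166 and 110.1 per kilobase. The order rests on lengths from an annotation that may differ from the authors', and on a mean over libraries that includes 4 not described here, so close neighbours such as E2F1 and E2F4 were not ranked. Of the genes that fell, E2F1 stood with E2F4 at the top of this order and RBL1 in the middle. E2F8 and E2F2 were among the lowest 4.

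**Figure D3:**
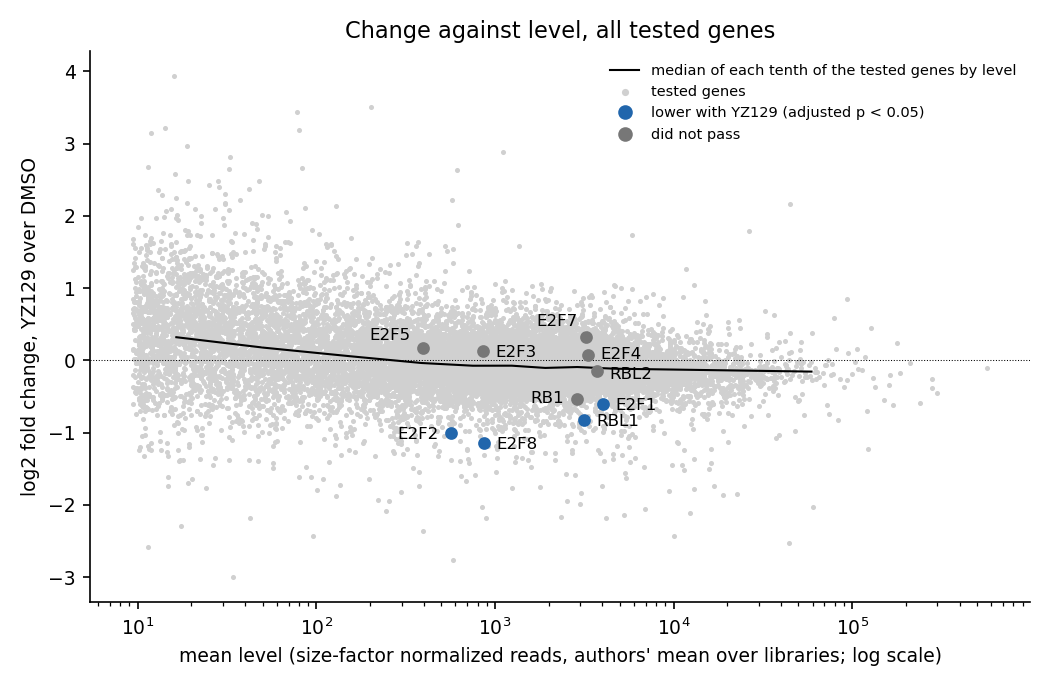
Log2 fold change, YZ129 over DMSO, against the authors' mean level on a log axis, with tested genes in light grey, members that fell in blue and members that did not pass in dark grey; the line joins the medians of 10 level bins. The members span mean levels from 394 to 4020.4, where these medians lie between -0.12 and -0.04.

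The change of all tested genes moved with level: the median was 0.32 in the lowest of 10 level bins and -0.16 in the highest. Over all genes 776 rose and 1132 fell, and with changes centred on the median of all tested genes 954 rose and 884 fell, or 920 and 804 when centred by level bin. E2F1, E2F2, E2F8 and RBL1 passed under both centrings. Of the genes described next, TFDP1, CDKN1B and CDKN2D passed under neither, and RBBP4 and CDK2 did not pass when centred by level bin (adjusted p = 0.0955 and 0.0630). Nor did the nucleotide enzymes TYMS (adjusted p = 0.0678) and RRM2 (adjusted p = 0.110) when centred by level bin.

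Of the 3 tested partners and relatives of the E2Fs outside the members, 1 fell (33.3%), against 7.64% of all tested genes. Their median was -0.21. TFDP1, the main DP subunit, fell by 0.39 ± 0.13 on the log2 scale (adjusted p = 0.0274) in the authors' deposited table. TFDP2, the other common DP subunit, stood at -0.21 ± 0.15, and E2F6, a repressor that needs no pocket protein, at 0.07 ± 0.15 in the authors' deposited table. TFDP3 had a mean level of 0.521 there and no adjusted p. Of the MuvB core, which joins p107 or p130 and E2F4 as the DREAM repressor, the histone-binding RBBP4 fell, at -0.49 ± 0.14 (adjusted p = 0.00496) in the authors' deposited table. In the authors' deposited table LIN9 (-0.03 ± 0.18), LIN37 (0.05 ± 0.19), LIN52 (-0.13 ± 0.16) and LIN54 (-0.34 ± 0.19) did not pass. Of the factors that take the place of pocket proteins on MuvB later in the cycle, B-MYB (MYBL2, a known E2F target) fell by 0.55 ± 0.15 (adjusted p = 0.00512) and FOXM1 had 0.02 ± 0.15, per the authors' deposited table. Of these 7 MuvB genes 28.6% fell, against 7.64% of all tested genes, and their median was -0.13.

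Genes that control pocket protein phosphorylation held 4 falls, with medians of -0.31 for kinases and cyclins and -0.52 for the 3 tested inhibitors. Falls made up 22.2% of the first list and 66.7% of the second, against 7.64% of all tested genes. CCNE1, CCNE2 and CDC25A are also counted among the G1/S targets below. Of 9 kinases, cyclins and their phosphatase 2 fell and 0 rose: CCNE2, a cyclin E gene and E2F target, at -1.14 ± 0.23 (adjusted p = 3.52e-05) and its kinase CDK2 at -0.46 ± 0.14 (adjusted p = 0.0112) in the authors' deposited table. In the authors' deposited table CCNE1 (-0.34 ± 0.18), CDK4 (-0.31 ± 0.15), CCND3 (-0.30 ± 0.15), CDK6 (-0.36 ± 0.41) and CCND1 (0.14 ± 0.13), which act on pocket proteins in G1, did not pass. Of the CDK inhibitors CDKN1B (p27) fell by 0.63 ± 0.22 (adjusted p = 0.0419) and CDKN2D (p19) by 0.52 ± 0.18 (adjusted p = 0.0300), per the authors' deposited table. CDKN1A (p21) stood at 0.07 ± 0.14, and CDKN1C had a mean level of 2.75 and no adjusted p in the authors' deposited table. CDKN2A, CDKN2B and CDKN2C had no value under these symbols in the authors' deposited table.

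Most E2F targets of the G1/S transition fell. Of 40 such genes, members left out, 32 fell, 0 rose and 8 did not pass, and the median change was -0.59, against -0.05 over all tested genes. The 32 are 80% of the list, against 7.64% lower over all tested genes. Ranked by adjusted p in the authors' deposited table, the leading genes were MCM6 (-1.08 ± 0.14) and MCM5 (-1.03 ± 0.15) of the replicative helicase, the origin loader CDC6 (-0.95 ± 0.14) and the polymerase clamp PCNA (-0.91 ± 0.14). The nucleotide enzymes TK1 (-0.67 ± 0.15), TYMS (-0.53 ± 0.17) and RRM2 (-0.49 ± 0.14) also fell in the authors' deposited table, TYMS and RRM2 without passing when centred by level bin. CDC25A, named after its value was seen, was the 1 target above 0, at 0.18 ± 0.15 in the authors' deposited table.

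Most late cell cycle genes did not pass. Of 25 genes controlled by DREAM and by B-MYB or FOXM1 with MuvB, 6 fell, 0 rose and 19 did not pass, with a median of -0.14. The 6 are 24% of the list, against 7.64% lower over all tested genes. Leading by adjusted p in the authors' deposited table were the topoisomerase TOP2A (-1.42 ± 0.15), the ubiquitin-conjugating UBE2C (-1.32 ± 0.17) and the mitotic kinases CDK1 (-1.39 ± 0.20) and AURKB (-0.89 ± 0.16). Whether the G1/S and G2/M lists differ was not tested. Both lists were chosen with earlier results of these data known, and E2F-driven genes share their regulators, so their members are not independent of each other.

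**Figure D4:**
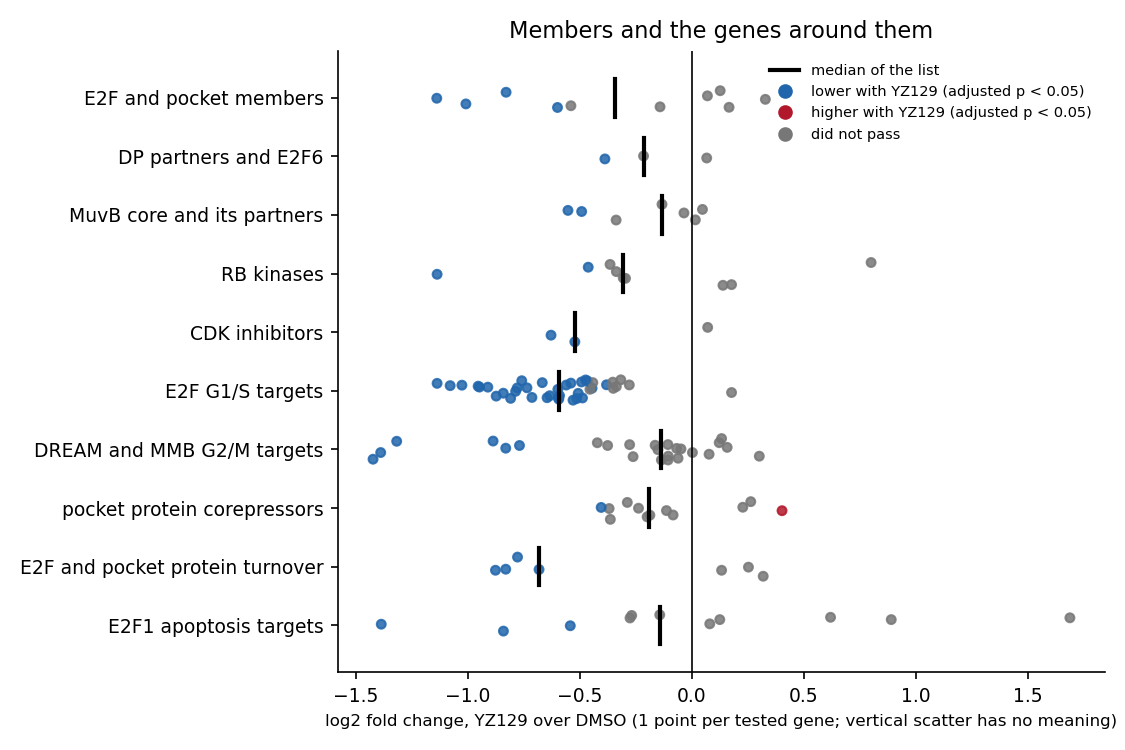
Log2 fold change, YZ129 over DMSO, of each tested gene in the members and in 9 lists around them, with blue for genes that fell, red for genes that rose, grey for those that did not pass and a black bar at the median. The G1/S targets lie almost wholly below 0 with a median of -0.59, while most G2/M targets cluster around -0.14.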

How the data were processed

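Poly(A) RNA of U87 cells was sequenced in 4 libraries, grouped by their titles (n = 2 per group). Per the submitters' processing notes hg19 was the build, and Cuffdiff, Cufflinks 2.2.1 and TopHat2 2.0.12 were among the tools, in no stated role. Per the file headers, the deposited columns have the names DESeq2 gives its results. Its version, the read counter and the annotation are not stated. Deposited for each gene were a mean level (a signal: reads divided by size factors), the log2 fold change and SE, the Wald score, and p-values before and after adjustment. On the deposited rows the score equalled change over SE, the p-value its two-sided normal p, and the adjusted p-value a Benjamini-Hochberg adjustment over 14812 genes. The other 4937 genes, with a mean level of at most 9.43, had none.

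The 36 lowest mean levels were the sums of 2 reads over 8 libraries (tolerance 1e-07), 4 more than described here. Whether the 4 entered the SE is not stated. For some of the 8 libraries, genes with both reads there had a median change near 0, from -0.0024 to -0.0018. The fit behind the SE may therefore have included the further 4, which was not tested. Genes with both reads in 1 library had a median change of at most 0.55 in size, so the deposited log2 changes had been moderated towards 0 and understate low genes. Total reads per library were not analysed here, so depth is unknown.

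A deposited adjusted p under 0.05 was the call. From the SE, 95% normal intervals and differences between members were computed (Python 3.11.15, scipy 1.17.1). Members, lists and pairs were chosen with earlier results of these data known. All members were named; of other lists, all genes of those with 7 or fewer, otherwise the 4 with the smallest adjusted p and a few set genes. Heat shock and marker genes are named as examples, chosen with their values known. Centring and adjustment were tested on simulated data. Promoter windows are RefSeq's (GRCh38.p14); hg19 coordinates were not used.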

Additional observations from a re-analysis of the deposited data

How the results depend on the processing

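No paired analysis was possible because the authors' table holds no values per library; leaving out each library was not run for the same reason. E2F1, E2F2, E2F8 and RBL1 passed, and the other 6 members did not, under an adjusted p of 0.01, no filter on low levels, a mean level of at least 100 and both centrings. With a log2 change of at least 1 required, 2 members fell (E2F2 and E2F8), while E2F1 (-0.60) and RBL1 (-0.83) were lost by construction. No member changed sign.

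With a log2 change of at least 1, falls numbered 3 among G1/S targets, 3 among G2/M targets, 1 among the RB kinases and 1 among E2F1 apoptosis targets. They numbered 0 among DP partners, MuvB genes, CDK inhibitors, corepressors and turnover genes, as did rises among corepressors. Over all genes 174 then fell and 239 rose. At an adjusted p of 0.01, 698 genes fell and 446 rose over all genes. Falls were then 1 among RB kinases and 0 among DP partners, CDK inhibitors and corepressors, with 0 rises among corepressors. With no filter on low levels, 1 CDK inhibitor fell and 0 corepressors rose, more genes being adjusted over. Centred on the median of tested genes, falls were 0 among DP partners, CDK inhibitors and corepressors. Centred by level, they were also 0 in these 3 lists and 1 each among MuvB genes and RB kinases, and 1 G2/M gene (AURKA) rose. The G1/S targets had between 24 and 33 falls under the settings other than the minimum change.

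Precision is limited by 2 libraries a group, and depth in reads is unknown.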

Other observations

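Genes that control the turnover of E2Fs, pocket proteins, CDK inhibitors or cyclins held 4 falls and 0 rises among 7, with a median of -0.68. The falls are 57.1% of the list, against 7.64% lower over all tested genes. CCNF is also counted in the G2/M list. In the authors' deposited table these were CKS1B (-0.78 ± 0.14) and SKP2 (-0.68 ± 0.18), which together direct p27 and p130 to degradation, FZR1 (-0.88 ± 0.17), an activator of the anaphase-promoting complex, and CCNF (-0.83 ± 0.17), the cyclin F subunit that targets E2Fs. In the authors' deposited table AMBRA1 (0.32 ± 0.15), MDM2 (0.25 ± 0.19) and CDC20 (0.13 ± 0.16) did not pass.

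Of 11 pro-apoptotic genes known as E2F1 targets 3 fell and 0 rose, with a median of -0.14. The falls are 27.3% of the list, against 7.64% lower over all tested genes. BID (-0.84 ± 0.14), DIABLO (-0.54 ± 0.15) and the p53 relative TP73 (-1.39 ± 0.45, mean level 41.9) fell in the authors' deposited table. In the authors' deposited table HRK, with a mean level of 11.9, stood at 1.69 ± 0.67 and did not pass (adjusted p = 0.0749). Of 12 chromatin factors that bind pocket proteins 1 fell and 1 rose, with a median of -0.19. Each is 8.33% of the list, near the 7.64% lower and 5.24% higher over all tested genes. RBBP8 did not pass under either centring, and SIN3B did not pass with no filter on low levels (adjusted p = 0.0514). In the authors' deposited table RBBP8 (-0.40 ± 0.14) fell and the corepressor SIN3B (0.40 ± 0.14) rose, while RBBP7 (-0.36 ± 0.14) and SUV39H1 (-0.37 ± 0.16) did not pass.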
